A study of Mus musculus with 5 samples.

Results

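Of the 31098 regions where H2A.Z was mapped in the mouse heart, 11622 lay at the start of a gene, and 2061 of those (17.7%) held no CpG island. These 2061 promoter regions are described here, beside the 9561 promoter regions that hold an island. A region was taken as a promoter region where a listed gene start lay within 1000 bp of the region's centre or inside the region, and the count of CpG islands in the region was read from the deposited table. Chromatin immunoprecipitation sequencing was done on whole hearts of male C57BL/6 mice aged 12 weeks, and no other genotype is stated. The H2A.Z and the ANP32E antibody each gave 1 library from hearts after a sham operation and 1 from hearts after 4 days of transaortic coarctation (TAC), which loads the left ventricle with pressure. A single input library, labelled as pooled heart, completes the 5 libraries. The labels do not say how many hearts entered each library. With 1 library per antibody and condition no p-value could be given, and every difference below describes these libraries. Whole hearts mix cell types, so fewer cells of a type and less H2A.Z per cell cannot be told apart.

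H2A.Z is a variant of histone H2A that is placed in the nucleosomes flanking transcription start sites, and ANP32E is a chaperone that can take it out again. CpG islands are stretches of unmethylated, CpG-rich DNA that cover the promoters of most housekeeping and developmental genes, and H2A.Z is a regular component of their chromatin. Promoters without an island more often belong to genes used in few cell types, in the heart among them genes of the contractile apparatus, and they rely more on sequence elements such as the TATA box and binding sites of lineage factors.

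The 2061 regions carried 2180 gene entries. RefSeq matched 2095 of them, comprising 1774 protein-coding genes, 264 long non-coding RNAs and 20 miRNAs. Long non-coding RNAs made up 12.6% of the matched entries and 5.19% of those at island promoters. The regions served 1 gene start in 1944 cases, 2 in 115 and 3 in 2, whereas 18.1% of island promoter regions served 2. For 602 of the genes (27.6%) another H2A.Z region, over a CpG island, was listed for the same gene. The share of promoter regions without an island ranged on the autosomes from 12.7% on chromosome 12 to 24.8% on chromosome 6 and was 27.8% on the X chromosome. All 4 promoter regions on the Y chromosome lacked an island.

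Promoter sequences from RefSeq (GRCm38.p6, 250 bases before to 50 after the gene start) were available for 1570 of the entries. Observed over expected CpG, which compares the CpG dinucleotides present with the number that the base composition predicts, had a median of 0.41 in these windows and 0.81 in 8926 windows of island promoters. The windows held a median of 9 CpG dinucleotides against 23. The following windows show what such promoters look like. The first 3 belong to genes of striated muscle and the next 2 to genes of the interferon response, with capitals marking a MEF2 element in Xirp2, Klhl41 and Isg20, the letters TATAAA in Trim63, and, in Ifit1, matches to the core of the interferon-stimulated response element (TTTC, 2 free bases and TTTC again). The last, from the ribosomal protein gene Rpl4, is marked for its CpG dinucleotides. Klhl41, Isg20, Trim63, Ifit1 and Rpl4 were chosen for display after their values were seen.
Xirp2 (chr2:67445752-67446051, plus strand): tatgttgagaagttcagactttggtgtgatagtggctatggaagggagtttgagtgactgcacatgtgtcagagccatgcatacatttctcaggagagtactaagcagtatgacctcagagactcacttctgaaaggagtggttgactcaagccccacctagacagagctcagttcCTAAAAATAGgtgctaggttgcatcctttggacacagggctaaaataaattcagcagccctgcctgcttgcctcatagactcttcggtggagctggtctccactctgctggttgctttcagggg
Klhl41 (chr2:69669870-69670169, plus strand): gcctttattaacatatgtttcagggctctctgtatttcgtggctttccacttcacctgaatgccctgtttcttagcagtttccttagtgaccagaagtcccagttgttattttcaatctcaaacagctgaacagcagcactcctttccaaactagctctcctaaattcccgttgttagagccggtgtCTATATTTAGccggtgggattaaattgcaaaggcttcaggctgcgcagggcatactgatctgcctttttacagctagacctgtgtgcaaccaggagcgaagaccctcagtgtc
Trim63 (chr4:134314870-134315169, plus strand): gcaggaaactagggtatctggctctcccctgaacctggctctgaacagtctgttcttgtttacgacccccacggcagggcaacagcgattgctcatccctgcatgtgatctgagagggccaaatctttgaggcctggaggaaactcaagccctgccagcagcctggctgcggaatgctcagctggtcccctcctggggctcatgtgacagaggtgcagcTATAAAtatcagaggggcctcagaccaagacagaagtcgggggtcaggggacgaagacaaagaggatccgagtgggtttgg
Isg20 (chr7:78913174-78913473, plus strand): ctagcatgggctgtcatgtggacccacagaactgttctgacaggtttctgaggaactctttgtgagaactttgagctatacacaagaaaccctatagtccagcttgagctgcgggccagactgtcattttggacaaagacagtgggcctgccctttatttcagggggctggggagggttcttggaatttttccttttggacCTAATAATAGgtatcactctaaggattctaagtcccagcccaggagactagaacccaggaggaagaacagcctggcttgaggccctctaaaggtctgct
Ifit1 (chr19:34640639-34640938, plus strand): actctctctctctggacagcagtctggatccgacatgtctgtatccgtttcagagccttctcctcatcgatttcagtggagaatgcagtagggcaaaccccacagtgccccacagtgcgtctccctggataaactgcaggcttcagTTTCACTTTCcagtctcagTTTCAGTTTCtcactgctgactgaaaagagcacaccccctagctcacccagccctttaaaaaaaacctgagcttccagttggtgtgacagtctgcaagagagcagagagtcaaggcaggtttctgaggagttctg
Rpl4 (chr9:64173137-64173436, plus strand): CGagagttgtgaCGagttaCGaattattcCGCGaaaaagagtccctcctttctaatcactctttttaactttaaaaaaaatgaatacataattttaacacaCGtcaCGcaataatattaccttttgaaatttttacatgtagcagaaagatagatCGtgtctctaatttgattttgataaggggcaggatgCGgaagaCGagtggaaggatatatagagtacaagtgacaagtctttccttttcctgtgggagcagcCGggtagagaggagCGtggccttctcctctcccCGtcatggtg

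The windows shown differ in CpG content. The Xirp2 window held 1 CpG dinucleotide in 300 bases, the Trim63 window 7 and the Rpl4 window 13. Rpl4, which shares its region with the divergent gene Zwilch, was the only 1 of 55 H2A.Z promoter regions of ribosomal protein genes without an island, and its observed over expected CpG was 1.06 at a GC content of only 40.7%. By sequence alone, 295 of the 1570 windows (18.8%) were CpG-rich, with a GC content over 50% and an observed over expected ratio above 0.6, although the table counted no island there. At island promoters 79.9% of windows met that definition. The CpG-rich windows without a counted island lay in stronger H2A.Z regions, with a median mean signal of 24.2 against 17.6 at CpG-poor windows.

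H2A.Z at promoters without an island was weaker and flatter than at island promoters. In the deposited units the median average signal was 17.9 (sham) and 18.3 (TAC), with a middle 50% of regions from 13.5 to 23.3 in sham and from 13.9 to 23.8 in TAC. Island promoters had medians of 28.4 and 29.1, with a middle 50% from 22.8 to 34.1 in sham. The median highest signal in a region was 46 in sham and 49 in TAC, compared with 94 and 104 at island promoters. The ratio of peak to average signal was thus lower, at 2.52 against 3.15 in sham. Regions had a median length of 3678 bp against 4294 bp. Among all H2A.Z regions divided into quartiles of mean signal, 20.9% of promoters without an island fell in the strongest quartile and 68.6% of those with one. An interval was called in both libraries at 1798 regions (87.2%), in sham only at 91 and in TAC only at 172, and island promoters were called in both at 97.5%.

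**Figure D1:**
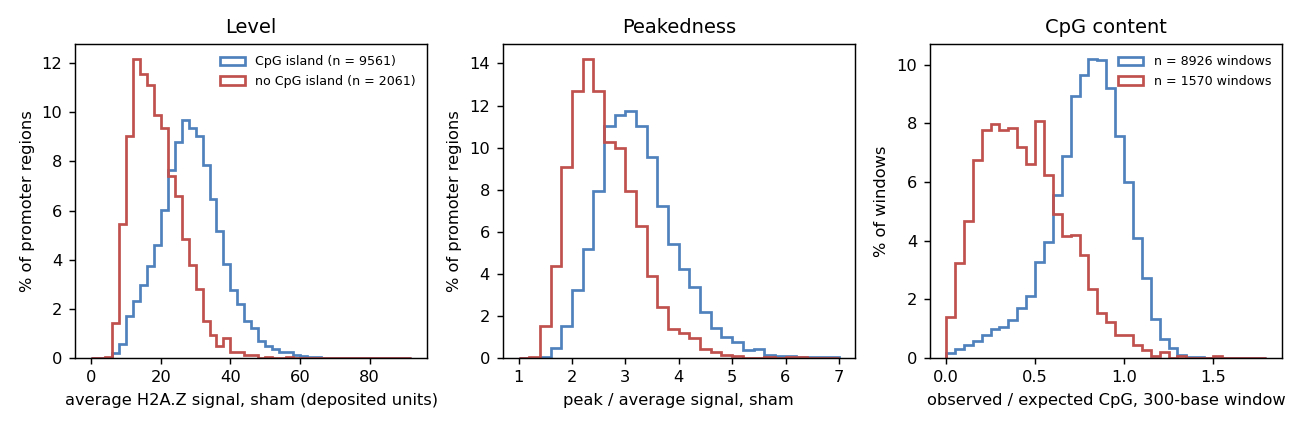
Histograms of the share of H2A.Z promoter regions without a CpG island (red) and with one (blue) by average signal in the sham library, by peak over average signal in sham, and of RefSeq promoter windows by observed over expected CpG. Regions without an island centre on lower signal (median 17.9 against 28.4), lower peakedness (2.52 against 3.15) and lower CpG content (0.41 against 0.81), with overlap in each panel.

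The strongest promoters without an island reached the level of island promoters. The divergent pair Zfp27 and Zfp383, which encode zinc finger proteins, shared a region with an average signal of 56.3 in sham and 48.3 in TAC (chromosome 7, 29905216 to 29910540, mm10). At 1700031P21Rik the values were 51.7 and 51.2. Ttc30b, a component of the intraflagellar transport machinery of cilia, had 44.6 in sham and 44.7 in TAC. The pair Taf6 and Cnpy4, of which Taf6 is a subunit of the general transcription factor TFIID, had 46.1 and 43.1. Lamb2, a laminin chain of basement membranes, had 46.0 and 42.9, and Nup85, a nuclear pore protein, had 42.8 and 45.8. The log2 TAC/sham ratio of the average signal, computed with 1 added to both values, stayed between -0.21 and 0.10 at these 6 regions. The longest regions were those of Zfp366 (29266 bp), 1810073O08Rik (25244 bp), Cstad (24325 bp) and Cd36 (22347 bp). Cd36, the fatty acid transporter of muscle and endothelium, carried an average signal of 16.7 in sham and 13.3 in TAC over that length.

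Between the conditions the promoters without an island hardly moved as a group. Their median log2 ratio was 0.05 with a standard deviation over regions of 0.24, compared with 0.04 and 0.15 at island promoters and -0.04 and 0.34 at the 18135 other regions without an island. A ratio of at least 1.5-fold was reached upwards by 27 regions (1.31%) and downwards by 20 (0.97%), against a background over all H2A.Z regions of 1.74% higher and 3.92% lower. Both shares were below the background. At island promoters 33 regions were higher and 0 were lower past that threshold. The regions past it were weak: 26 of the 27 higher ones were called in TAC only, 14 of the 20 lower ones in sham only, and of the stronger 50% of regions none was higher and 1 was lower.

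From the weakest to the strongest quartile of all H2A.Z regions, the median log2 ratio at promoters without an island was 0.18, 0.06, 0.04 and 0.04, and its standard deviation over regions fell from 0.39 through 0.28 and 0.19 to 0.13. Island promoters had medians of 0.27, 0.21, 0.07 and 0.03 in the same quartiles. Other regions without an island had -0.10, -0.04, 0.00 and 0.01. In the weakest quartile, 14 of 275 promoters without an island were lower past 1.5-fold, and 0 of 133 with one. Of the 275 promoters without an island in the weakest quartile, 107 were called in both libraries, 55 in sham only and 113 in TAC only. A region called in 1 library entered the table through its signal there, and its part in the trend with level was not tested.

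**Figure D2:**
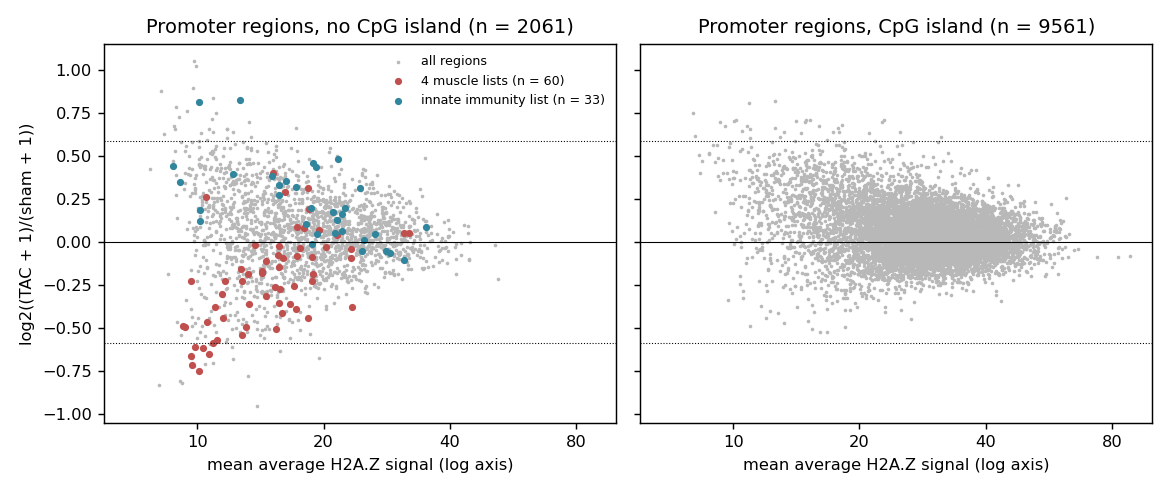
Log2 TAC/sham ratio of the average H2A.Z signal against the mean of both libraries (log axis) for promoter regions without a CpG island (left, n = 2061) and with one (right, n = 9561); dotted lines mark 1.5-fold. The spread is widest at weak regions, where the 60 regions of the 4 muscle gene lists (red) lie mostly below 0 and the 33 regions of innate immunity genes (teal) mostly above.

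Genes of the contractile apparatus stood lower in TAC. Of 57 sarcomere and Z-disc genes, 20 had an H2A.Z promoter region without an island and 17 one with an island. The 20 had a median average signal of 15.3 in sham and 13.0 in TAC and a median log2 ratio of -0.30, with 18 below 0 and 2 above. Over all promoters without an island 40.5% were below 0, and in the quartile of regions at that level the median was 0.06. The island promoters of the same list had a median of -0.0012 at a mean signal of 23.6. The list and its genes were chosen with earlier results of these data known.

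Xirp2, a xin repeat protein that binds actin at intercalated discs, had 12.3 in sham and 7.12 in TAC (log2 ratio -0.71; chromosome 2, 67445982 to 67447504). Ankrd1, a stretch-responsive ankyrin repeat protein and transcriptional cofactor, had 13.3 and 8.07 (-0.65). Ankrd23, a relative of Ankrd1 that binds titin and stands outside the list, had the lowest ratio of all 2061 regions, with 18.6 in sham and 9.16 in TAC (-0.95; chromosome 1, 36534359 to 36537157). Its peak signal went from 45 to 23, so the average and the highest signal moved alike.

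Trim63, a ubiquitin ligase of muscle that marks contractile proteins for degradation, had 13.3 in sham and 8.54 in TAC (-0.58). Its relative Trim55 had 18.2 and 12.5 (-0.50), and Trim54 10.5 and 8.83 (-0.23). The cardiac kinase gene Tnni3k had 13.4 and 9.62 (-0.44), and Synpo2l, a Z-disc protein, 12.4 and 8.70 (-0.47). In each of these the sham value was the higher, and Trim63 came nearest to 1.5-fold. The genes of this paragraph were chosen after their values were seen, so their shared direction is not a result.

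The thin-filament genes differed among themselves. Tnnt2, the troponin T of heart, had 15.0 in sham and 11.5 in TAC (-0.36), while Tnni3, the troponin I of heart, had 15.8 and 15.5 (-0.02). Ldb3, a Z-disc adaptor, had 19.6 and 14.8 (-0.39), and Smyd1, a methyltransferase needed for sarcomere assembly, had 15.4 and 10.7 (-0.49). At Smyd1 the peak signal did not follow, at 31 and 32. Higher in TAC were Myoz1, a calcineurin-binding Z-disc protein, with 16.3 and 20.5 (0.31), and the divergent pair Cryab and Hspb2, small heat shock proteins, with 17.2 and 19.8 (0.19).

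Among the fixed heart genes, Nppa, Nppb, Myh6, Myh7, Actc1, Mb, Pln, Ttn, Myl2 and Myl3 had no H2A.Z promoter region of either kind under the rule used. They include the natriuretic peptides, the myosin chains and titin, all characteristic of heart muscle, while Tnnt2, Tnni3 and Ldb3 had such a region. H2A.Z at a promoter is not a measure of its expression.

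Attachment and membrane genes of muscle showed the same direction. Of 39 intercalated disc and costamere genes 11 had a promoter region without an island, with a median ratio of -0.36 (9 below 0) at a median mean signal of 13.2, and 23 had one with an island, with a median of -0.07 at 23.5. With peak signal the median of the 11 was -0.10. Dtna, the dystrophin-binding dystrobrevin, had 15.3 in sham and 10.3 in TAC (-0.54), and Nrap, a protein of nascent myofibril attachment, 12.6 and 9.48 (-0.38). Ank2, an ankyrin that anchors ion transporters, had 9.42 and 11.5 (0.26) and was called in TAC only.

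Calcium handling and ion channel genes spread more widely around a median of -0.09, with 10 of 14 below 0 at a median mean signal of 16.8. Srl, the calcium-binding sarcalumenin of the sarcoplasmic reticulum, had 12.9 in sham and 7.28 in TAC (-0.75; chromosome 16, 4522070 to 4524128). Trdn, or triadin, which ties the ryanodine receptor to calsequestrin, had 12.1 and 7.59 (-0.61). Cacna1c, the pore of the L-type calcium channel, had 13.5 and 8.79 (-0.57), with peak values of 29 and 13. All 3 were called in sham only. Casq1 and Kcnj2 were stronger and nearly level, with 30.4 and 31.7 at Casq1 and 31.3 and 32.5 at Kcnj2, and Kcna5, a potassium channel of the atria, had 14.5 and 17.9 (0.29).

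Muscle isoforms of metabolic enzymes had a median of -0.26 over 15 promoters without an island, 12 of them below 0, and of 0.04 over 14 island promoters, at median mean signals of 15.6 and 24.7. Cox6a2, the muscle isoform of a cytochrome c oxidase subunit, had 12.7 in sham and 7.92 in TAC (-0.62). Cox8b, another muscle isoform of that enzyme, had 26.5 and 20.2 (-0.38) and was among the 8 lowest of the stronger promoters. Ldhd, which oxidises D-lactate in mitochondria, had 21.3 and 15.4 (-0.44), and Ppp1r3a, which targets a phosphatase to glycogen, 11.0 and 7.56 (-0.48). Ckm, the creatine kinase of muscle, had 16.8 and 13.8 (-0.26).

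Cox7a1, a further muscle isoform of cytochrome c oxidase, went the other way, with 12.9 in sham and 17.4 in TAC (0.40). Its peak signal went from 51 to 68. The island-free promoters of the respiratory chain as a whole, 8 of 57 in that list, had a median of 0.03, or 0.23 with peak signal, with 4 below and 4 above 0 by average signal.

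Together the 4 lists of sarcomere, calcium, metabolic and attachment genes had 60 promoter regions without an island, of which 49 (81.7%) were below 0 and 6 lower past 1.5-fold, with 0 higher. The background was 3.92% lower over all H2A.Z regions and 0.97% over all promoters without an island. The median ratio of the 60 was -0.23, and -0.17 with peak signal. An interval was called in sham only at 16 of the 60 (26.7%), against 4.42% of all promoters without an island, and a region called in sham only is low in TAC by how it entered the table. Over the regions called in both libraries the medians were -0.24 for the sarcomere list (14 regions), -0.06 for calcium (10), -0.19 for metabolism (10) and -0.27 for attachment genes (6). The 88 island promoters of the same lists had a median of -0.02, with 0 past the threshold in either direction, at a mean signal of 24.8 against 15.3. The lists were thus lower at their weaker, island-free promoters, and how much of that goes with level rather than with the island was not tested.

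**Figure D3:**
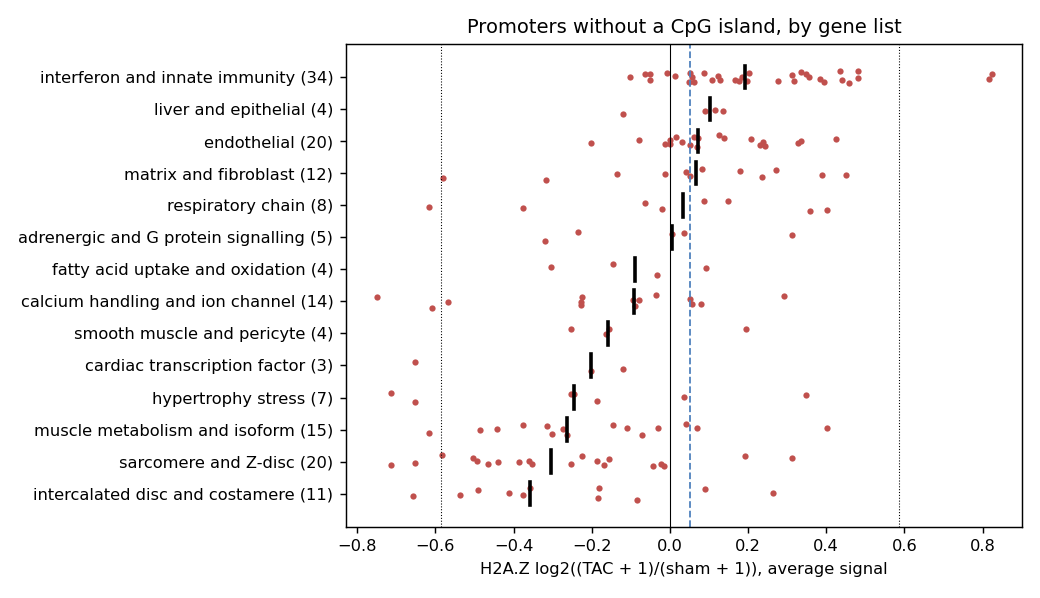
Log2 TAC/sham ratio of average H2A.Z signal at each promoter region without a CpG island (points) by gene list, with the number of entries in parentheses and the list median as a black bar; the dashed line is the median of all such promoters (0.05) and dotted lines mark 1.5-fold. Muscle lists have medians between -0.36 and -0.09, and the interferon and innate immunity list has 0.19.

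Smaller lists of heart biology were mixed. Of 7 hypertrophy stress genes, which include Xirp2 and Ankrd1, 5 were below 0 with a median of -0.24 at a median mean signal of 12.7; Il6, an inflammatory cytokine, was the highest, with 7.86 in sham and 10.3 in TAC (0.35). The cardiac transcription factor list had 3 such promoters and 29 with an island. Tbx5, a regulator of heart development, had 14.4 and 12.4 (-0.20), and Hopx, a homeodomain protein, 17.6 and 16.1 (-0.12). The 4 genes of fatty acid uptake and oxidation had a median of -0.09. The 5 adrenergic and G protein signalling genes had a median of 0.01, or -0.11 with peak signal, and ranged from Pde4b (-0.32), a cAMP phosphodiesterase, and Adra1a (-0.24), an adrenergic receptor, to Ednrb (0.31), the endothelin B receptor, at 22.8 and 28.5. The 4 smooth muscle and pericyte genes had -0.16, with Acta2, the smooth muscle actin, at 16.5 and 14.7.

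Endothelial genes frequently had H2A.Z at promoters without an island, 20 against 24 with one. The median average signal of the 20 was 18.2 (sham) and 19.3 (TAC), and 16 of 20 ratios were above 0 with a median of 0.07, near the 0.05 of all promoters without an island. With peak signal the median was 0.25 against 0.14. Emcn, the endothelial sialomucin endomucin, had 10.5 and 14.4 (0.42). Clec14a, a lectin of vessel walls, had 19.7 and 25.1 (0.34), and the receptor kinases Tie1 and Tek had 12.1 and 15.4 (0.33) and 18.1 and 21.6 (0.24). Pecam1, an adhesion molecule between endothelial cells, had 15.4 and 13.3 (-0.20), and Cdh5, the cadherin of their junctions, had 24.0 in both. None of the 20 reached 1.5-fold.

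Matrix and fibroblast genes had a median of 0.07 over 12 promoters without an island and of 0.07 over 24 with one, at median mean signals of 13.5 and 23.7. Col6a3, a chain of collagen VI, had 8.36 in sham and 11.8 in TAC (0.45), and Fap, a protease of activated fibroblasts, 7.58 and 10.2 (0.39), both called in TAC only. Col1a1 and Col1a2, the chains of collagen I, were nearly level at 15.5 and 16.1 and at 11.8 and 11.7. Ogn, a small leucine-rich proteoglycan, had 14.3 and 9.21 (-0.58), and Sparc, a collagen-binding matrix protein, 24.1 and 19.2 (-0.32). Tnc, or tenascin-C, a matrix glycoprotein of injured tissue that was not on the list, had 6.21 and 13.7 (1.02; chromosome 4, 64045783 to 64047770) and was 1 of 2 regions past 2-fold upwards, the other being 4833427G06Rik (6.04 and 13.6). The background past 2-fold over all H2A.Z regions was 0.0707% higher and 0.167% lower, and 0 of the 2061 were lower.

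Genes of the interferon response and innate immunity were mostly higher in TAC. This list of 60 genes was written after the values had been seen, so its counts are descriptions. It had 34 gene entries at 33 promoters without an island and 15 at promoters with one, a share without an island of 69.4%. That share is not comparable with those of lists written beforehand. The 34 had medians of 17.9 in sham and 21.9 in TAC and a median ratio of 0.19, with 29 above 0 and 5 below, at a mean signal of 19.2, where promoters without an island had a median of 0.04. Its 15 island promoters had 0.04.

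Casp1, the caspase that matures inflammatory cytokines, had 7.06 in sham and 13.2 in TAC (0.82), and Pglyrp1, a peptidoglycan recognition protein of neutrophils, 8.84 and 16.4 (0.82). Both were called in TAC only and were the 2 members of the list past 1.5-fold. Among its stronger promoters, the pair Oas1b and Oas1c, of the 2'-5' oligoadenylate synthetase family, had 17.9 and 25.4 (0.48; chromosome 5, 120810923 to 120814272). Cd40, a receptor of the tumour necrosis factor family, had 15.8 and 22.1 (0.46), and Phf11d 16.2 and 22.2 (0.44). Oas1a, a weaker region called in TAC only, had 7.28 and 10.2 (0.44).

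Ifih1, a cytosolic sensor of double-stranded RNA, had 21.7 and 27.1 (0.31), and Irf7, an interferon regulatory factor, 20.9 and 24.1 (0.20). Ifit1, which binds foreign RNA, had 13.7 and 17.6 (0.33), whereas its neighbour Ifit2 had 29.5 and 28.2 (-0.06). B2m, the light chain of class I histocompatibility molecules, was the lowest of the list, with 32.2 and 30.0 (-0.10). Oas and Ifit genes belong to families of close copies, and the sources used here do not say how the authors' mapping placed reads shared between copies.

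Markers of leukocytes had no promoter region without an island. The list held 38 marker symbols, with Adgre1 and Emr1 both naming the same gene. Of these symbols, 33 had no H2A.Z promoter region at all, among them Ptprc, Itgam, Csf1r, Lyz2, S100a8 and Cd3e. The 5 with one, all over an island, had a summed average signal of 93.3 in sham and 101 in TAC, from Cd68 (32.4 and 28.2) to Coro1a (14.6 and 18.7), with 4 above 0. The part of leukocyte number in the values of the innate immunity list was not tested.

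Zinc finger genes with a Zfp symbol formed the largest of the groups, with 87 entries at 86 regions without an island and 222 at island promoters. Such genes lie in clusters of close copies, and 58 of the 86 regions were on chromosomes 13 (21), 17 (19) and 7 (18). Their median was 22.3 in sham and 24.7 in TAC, with 64 regions above 0 and 22 below, between -0.23 at Zfp951 and 0.54 at Zfp111, and none past 1.5-fold. The median ratio was 0.08, and 0.06 at their island promoters. Zfp111 had 16.7 and 24.8 and was the highest of the stronger 50% of promoters without an island.

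The other named promoters of that stronger 50% were varied in function. Below 0, Phyhip had 24.2 in sham and 14.8 in TAC (-0.67) and was the single region lower past 1.5-fold there. Ddo, a D-aspartate oxidase, had 22.1 and 15.0 (-0.53), Hspb3, a small heat shock protein of muscle, 23.2 and 17.5 (-0.39), and Spocd1, Lrmp and Vwa3a had ratios between -0.37 and -0.33. Above 0, Gas2, a protein of actin and microtubule bundles, had 16.7 and 24.5 (0.52), and Syne1, the nuclear envelope protein nesprin-1, 17.6 and 25.3 (0.50). S100a2 and Spag1 had 0.44 each.

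Weaker regions past 1.5-fold downwards also included Yipf7 with 11.9 and 6.35 (-0.81), the stress kinase gene Mapk10 with 16.9 and 9.48 (-0.78), Egf, the epidermal growth factor gene, with 13.2 and 7.70 (-0.70), and Capn3, a muscle protease, with 14.8 and 9.38 (-0.61). Upwards they included Crispld1 with 5.49 and 10.9 (0.88), the transporter gene Abcc3 with 8.03 and 14.2 (0.75), the adhesion molecule gene L1cam with 9.90 and 16.7 (0.70), and F2rl3, a thrombin receptor, with 13.0 and 21.3 (0.66). Slc11a1, a metal transporter of phagocytes, had 7.79 and 12.6 (0.63), and Fyb, an adaptor of T cells, 6.64 and 11.0 (0.66). These, with the other regions past 1.5-fold, were chosen for their ratio. With peak signal, 46 of the 47 had the same sign, and 30 were past 1.5-fold. Over all 2061 regions peak signal gave 118 higher and 27 lower, or 5.73% and 1.31%, against a background of 5.81% and 4.45%.

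MiRNA genes were a small group of 21 entries at 19 regions, and 11 of these regions were above 0 and 8 below. Mir3086, with 6.54 in sham and 13.0 in TAC (0.89), and Mir3092, with 8.31 and 13.5 (0.64), were called in TAC only. The region of Mir199a-2 and its host transcript Dnm3os had 10.02 and 13.8 (0.43). The region that Mir130b and Mir301b share with the start of 2610318N02Rik had 10.8 and 14.5 (0.39). Mir100 had 11.4 and 9.03 (-0.30). The start of a miRNA gene in the table may be that of the hairpin and not that of the transcript.

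Sequence elements differed in frequency between the promoter kinds. The letters TATAAA, searched on both strands, were in 171 of the 1570 windows (10.9%), in 5.96% of windows of island promoters and in 13.6% of all 32851 RefSeq windows. The usual distance of a TATA box was taken as starting 35 to 25 bases before the gene start. There, on the gene strand only, the letters were in 33 windows (2.10%), against 0.97% at island promoters and 1.75% of all. GGGCGG, the core of SP1 sites, was in 38.5% of windows without an island and 72.1% of those with one. The share over all windows was 35.7%. CCGGAAG, of ETS factors, was in 8.98%, 19.6% and 8.86%. The core of the interferon-stimulated response element was in 90 windows (5.73%), against 2.43% and 3.44%. This last motif was added after the values were seen.

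The MEF2 element, an A/T-rich site bound by myocyte enhancer factors, was in 22 windows without an island (1.40%), in 0.38% of windows of island promoters and in 0.56% of all. The H2A.Z regions of these 22 had a median log2 ratio of -0.30, with 17 below 0 and 5 above, at a median mean signal of 14.0; regions with a window that lacked the element had a median of 0.06. With peak signal the medians were -0.32 and 0.16. In 9 of the 22 windows TATAAA was present too, and in 7 its letters overlapped those of the MEF2 element.

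Several of the 22 genes are genes of striated muscle. Xirp2, shown above, has the element 74 bases before its start. Klhl41, a kelch protein of myofibrils, had 16.8 in sham and 11.3 in TAC (-0.54) with the element at base -63. Capn3 (-0.61), Ppp1r3a (-0.48), Synpo2l (-0.47), Hspb3 (-0.39) and Synpo2 (-0.25) hold it as well. Isg20, an interferon-induced exonuclease with the element at base -49, had 27.8 and 32.8 (0.23), and Dlg2, a synaptic scaffold, 6.56 and 11.1 (0.67). Lrrc14b (0.08), Asb16 (0.04) and Gm826 (0.02) were also above 0, and Dusp27 was level, with 14.3 in both. The element thus occurred at promoters on either side of 0. Xirp2, Capn3, Ppp1r3a, Synpo2l, 2310020H05Rik and 1500035N22Rik were called in sham only, and Dlg2 and Lrrc14b in TAC only. A region called in sham only is low in TAC by how it entered the table. The part of such regions in the median of the 22 was not tested.

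**Figure D4:**
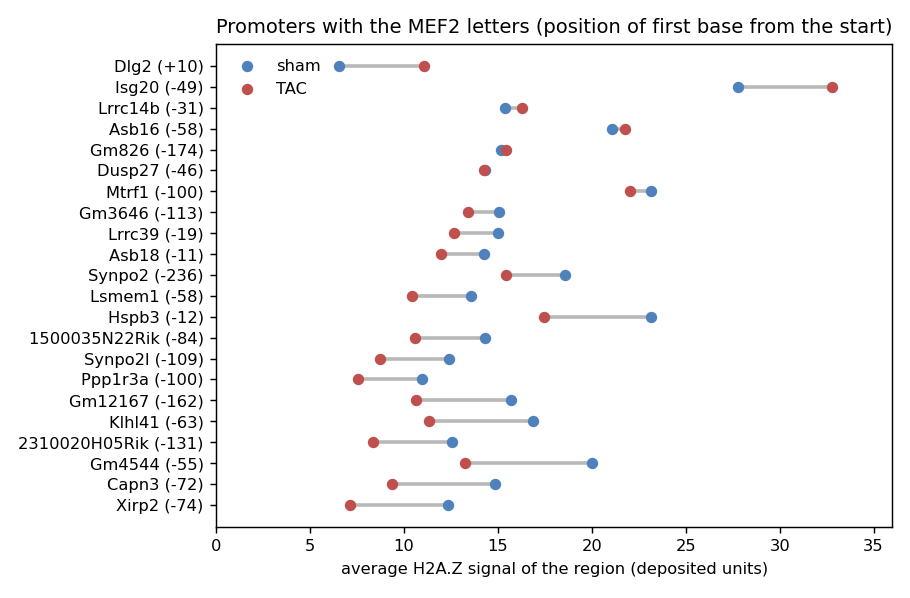
Average H2A.Z signal in sham (blue) and TAC (red) at the 22 promoters without a CpG island whose RefSeq window holds the MEF2 element, ordered by ratio, with the first base of the element relative to the gene start in parentheses. In 17 the TAC value lies left of the sham value, from Xirp2 at the bottom (12.3 and 7.12); Isg20 and Dlg2 at the top are higher in TAC.

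The CArG element of serum response factor was also in 22 windows, where the median ratio was -0.04, with 14 below 0 and 8 above, against a median of 0.06 without it. With peak signal the medians were 0.03 and 0.15. The interferon-response letters were in 89 regions with a median of 0.07, against 0.06 without them. Regions of the innate immunity list with and without these letters were not compared. For TATAAA the medians were 0.03 and 0.06, for GGGCGG 0.05 and 0.07, and for CCGGAAG 0.06 in both. The remaining letters searched were TGATAA and AGATAA of GATA factors, in 6.88% and 10.8% of windows without an island (9.05% and 11.2% of all windows), TGANTCA of AP-1 in 8.41% (7.81%), CATTCC of MCAT sites in 18.2% (14.7%), AAGGTCA of nuclear receptors in 3.95% (4.72%) and CANCTG of E-boxes in 54.0% (51.4%). Regions that held them had median ratios between 0.03 and 0.08. A match is only a match of letters in this window and does not show binding.

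ANP32E was found at 527 of the 2061 promoters without an island (25.6%), against 4325 island promoters (45.2%) and 11.1% of other regions without an island. The share followed the H2A.Z level. In the 4 quartiles from the weakest up it was 3.64%, 7.28%, 27.1% and 55.6% without an island and 0.75%, 1.88%, 23.9% and 56.7% with one. Both kinds of promoter were close in the 2 strongest quartiles, and the share was higher without an island in the 2 weakest, where 10 of 275 and 33 of 453 regions overlapped. The H2A.Z ratio had a median of -0.01 at promoters with ANP32E and 0.08 at those without, at mean H2A.Z signals of 24.2 and 16.1. Within the quartiles the medians were -0.06 and 0.18, -0.08 and 0.08, -0.03 and 0.07, and 0.01 and 0.07.

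ANP32E itself was lower in TAC at these promoters. Its median average signal was 8.17 in sham and 6.55 in TAC, with a median log2 ratio of -0.37, whereas all 8444 ANP32E regions had -0.26, those at island promoters -0.12, and those at other regions without an island -0.55. Relative to the shift of all regions the value was -0.11. Lower past 1.5-fold were 132 of the 527 (25.05%) and higher 18 (3.42%), against a background over all ANP32E regions of 23.9% lower and 4.96% higher. Those shares were near the background. ANP32E was called in sham only at 321 and in both libraries at 137. The shares over all ANP32E regions are not given beside these counts, so they do not show a loss particular to these promoters. An ANP32E region called in sham only is low in TAC by how it entered the table. The part of such regions in the lower median was not tested.

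The lowest ANP32E ratios were at Tfpi, an inhibitor of blood coagulation, with 8.02 in sham and 1.64 in TAC (-1.77), at Ttc30a2 with 7.31 and 2.26 (-1.35) and at Edn1, the vasoconstrictor endothelin-1, with 7.12 and 2.19 (-1.35). Rnu1a1, a gene of the repeated U1 small nuclear RNA family and uncertain for that reason, had 12.9 and 4.62 (-1.31). H2A.Z at these regions had ratios between -0.30 and -0.13. The highest were at Fry, with 2.27 and 8.40 (1.52), Gprc5b, an orphan receptor, with 2.74 and 8.72 (1.38), Igf1, the insulin-like growth factor, with 2.57 and 7.50 (1.25), and Gli1, a transcription factor of hedgehog signalling, with 3.23 and 8.34 (1.14). H2A.Z differed little at 3 of these 4, with ratios from -0.07 to 0.13, and was 0.43 at Fry.

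ANP32E also differed among the gene lists. Of the 60 regions of the 4 muscle lists 24 overlapped ANP32E, with a median of 8.36 in sham and 5.66 in TAC. Their median ratio was -0.49, with 20 below 0 and 10 lower past 1.5-fold. Over all ANP32E regions the median was -0.26 and 23.9% were lower past 1.5-fold. The median of all promoters without an island that overlap ANP32E, given above, lay between these medians. Ckm had 8.43 and 4.02 (-0.91), Cacna1c 7.94 and 4.16 (-0.79), and Ldb3 8.93 and 6.00 (-0.50). Of the 33 innate immunity regions 11 overlapped ANP32E, with a median ratio of 0.14 and 6 above 0. Ifit2, where H2A.Z was -0.06, had 5.40 and 8.94 (0.64), and B2m 7.35 and 10.4 (0.45). The 8 endothelial regions with ANP32E were divided 4 and 4 around a median of 0.09. The 24 zinc finger regions had -0.57 with 22 below 0, although their H2A.Z was not lower.

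**Figure D5:**
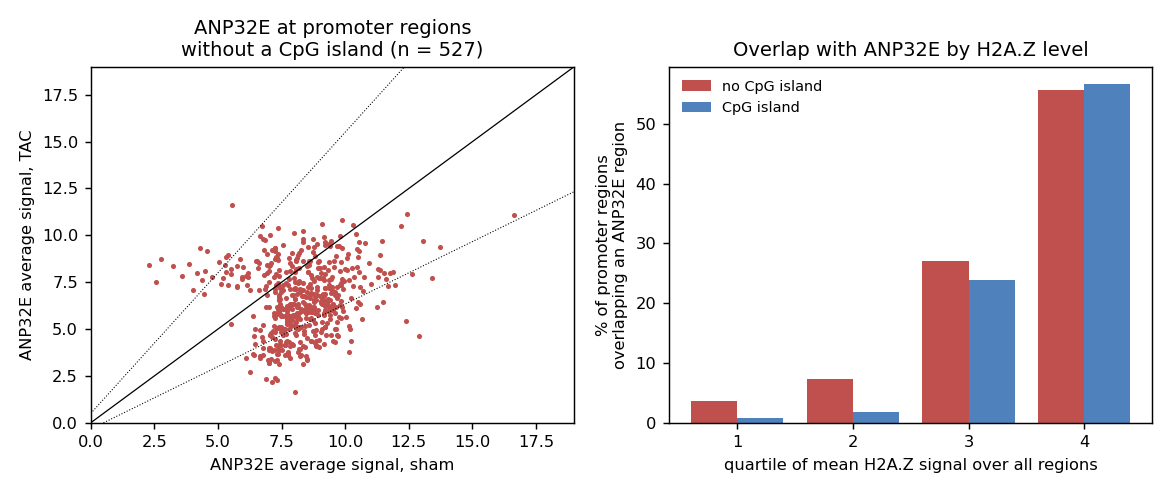
Left, average ANP32E signal in sham and TAC at the 527 promoter regions without a CpG island that overlap an ANP32E region, with the line of equality and dotted lines at 1.5-fold after adding 1; 413 points lie below equality. Right, share of promoter regions that overlap an ANP32E region by quartile of mean H2A.Z signal over all regions (1 weakest), with bars from 0, rising from 3.64% to 55.6% without an island (red) and from 0.75% to 56.7% with one (blue).

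The rule for a promoter has a sharp limit. Just inside it were Tnnc2, a troponin C of skeletal muscle, whose start lay 1199 bp from the centre where 1232 bp were allowed, with 12.3 in sham and 10.8 in TAC, Mfap5 at 1131 of 1163 bp with 8.21 and 10.4, and G630071F17Rik at 4353 of 4375 bp. Just outside were Trpv1, with 14.1 and 16.5, Tnnt1, the troponin T of slow skeletal muscle, with 22.1 and 21.9, and Gm19816, with 10.9 and 7.61. The start lay inside the region in 2049 of the 2061 members, and the median distance between centre and start was 414 bp.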

How the data were processed

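For each antibody the authors deposited a table of 1 merged set of regions, each called in the sham library, the TAC library or both. Per the file headers, a region has coordinates, average and peak signal per library, a mark for a called interval, a CpG island count, and nearby genes with distances. Signal was taken unchanged from the deposited tables. No source used here states its scaling for depth or the use of the input, so the depth behind a value is unknown and counting intervals could not be computed. BWA, SICER and mm10 are named per the submitters' processing notes, without versions.

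Regions were compared by log2((TAC + 1)/(sham + 1)) of the average signal and counted past 1.5-fold. The pseudocount of 1 understates ratios of weak regions. ANP32E regions were matched from 1 bp of overlap, taking the one with most overlap. Promoter windows and gene kinds came from RefSeq tables of GRCm38.p6, matched by symbol (2095 of 2180 entries, 1570 with a window). Motifs were searched on both strands, except for TATAAA at the TATA box distance, counted on the gene strand only.

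The members and the 18 gene lists with 749 entries were chosen with earlier results of these data known. The interferon list, the Zfp symbols, the interferon-response motif and the alternatives without CpG-rich windows and with lists restricted to regions called in both libraries were added after the values were seen. Named genes were the 8 highest and 8 lowest ratios of the stronger 50% of regions without predicted or numbered loci, the 6 strongest, the 4 longest, the 2 highest and 2 lowest of each list with at least 3 members, the 4 highest and 4 lowest ANP32E ratios, and 21 fixed heart genes. One gene that this rule names is not reported here. Every other gene named, including those past 1.5-fold, was chosen after its values were seen. The scripts were tested on simulated tables. Tools were pandas 2.3.3 and numpy 2.4.6 under Python 3.11.15, with scipy 1.17.1 for intervals used in labelling alternatives and matplotlib 3.10.9 for figures.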

Additional observations from a re-analysis of the deposited data

How the results depend on the processing

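No paired analysis was possible because each antibody and condition has a single library, and no library could be left out for the same reason. With peak signal the median H2A.Z ratio of promoters without a CpG island was 0.14 in place of 0.05, and 118 were higher past 1.5-fold in place of 27. List medians became -0.39 for muscle metabolism, 0.25 for endothelial, 0.22 for liver and epithelial, -0.081 for cardiac transcription factor, 0.23 for respiratory chain, -0.16 for fatty acid, 0.11 for matrix and 0.19 for Zfp genes. The adrenergic list changed sign, to -0.11. A pseudocount of 5 left 7 higher and 2 lower, and moved the ANP32E median to -0.25, whereas 0.1 gave -0.41. Centring moved the H2A.Z median to 0.036 and the ANP32E median to -0.11. The stronger 50% of regions had a median ratio of 0.039, 0 higher, 1 lower and 42.3% overlapping ANP32E. Regions called in both libraries left 1 higher and 6 lower and a share without an island of 16.2%. A distance of at most 500 bp gave a median of 0.073, 11 lower and a share of 16.6%, and regions with 1 gene at the start a share of 20.2%. At 2-fold 2 were higher and 0 lower. With ANP32E called in both libraries the overlap was 6.70%. The cause of these moves was not tested, except that stricter thresholds and fewer regions leave fewer counts by construction. Of the 131 named entries, 27 moved by more than the spread over regions with peak signal. With a pseudocount of 5, 1 moved, and none with a pseudocount of 0.1 or centring. No named ratio past 1.5-fold took the opposite sign. Sign changes of smaller ratios were not counted. With peak signal Tbx5 went from -0.20 to 0.11 and Ttc30a2 from -0.23 to 0.15. Without replicates, none of these values has an error between animals.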
